A study of Mus musculus with 50 samples.

Results

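Immediate-early genes of the AP-1 and Egr1 group were described across 50 single hemogenic endothelial cells made in culture from mouse embryonic stem cells (iRunx1-iHECs). The 9 genes were taken by name, Fos, Fosb, Fosl2, Jun, Junb, Jund, Atf3, Egr1 and Ier2, and each of the 9 had a row among the 11879 gene rows of the table. The stem cells were of C57BL/6 background and carried a Runx1 cassette in Rosa26 that doxycycline switches on, and the cells were collected after doxycycline had been added to the culture. The study made single-cell suspensions with trypsin and sorted the cells on surface staining as CD31+CD41lowCD45-c-kit+CD201high. All 50 cells belong to 1 group, no untreated or unsorted cells were analysed here, and no culture or animal is named for them, so the group is 1 sample and no test over replicates was made.

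AP-1 is a dimer of basic leucine zipper proteins. A Fos protein needs a Jun partner to bind DNA, while Jun proteins also pair among themselves or with proteins of the ATF family such as Atf3. Egr1 is a zinc finger factor, and Ier2 is a nuclear protein induced along with them. Transcription of these genes rises within minutes of growth factor, shear or stress signals, mostly through MAP kinases and the serum response factor, and the messengers decay quickly. Several of them are also known to rise while tissue is digested into single cells.

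Values are TPM, transcript abundance per length on a common total, so levels of different genes can be set side by side. The level used for presence was TPM 1. Sequencing depth cannot be read from TPM, and the number of genes above TPM 1 in a cell stands in for it. That number had a median of 6224 (6223.5 before rounding) and ran from 2400 in cell 4-6 to 8615, with 7 cells below 5000. Cells are named by both numbers of their titles. The first number is 1 in 11 cells, 2 in 14, 3 in 13 and 4 in 12, and what it stands for is not given. As a check of the labelled cell type, the 8 endothelial markers were each above TPM 1 in at least 45 cells. Of the 8 blood markers, Itga2b (CD41, part of the gate) and Tyrobp were above TPM 1 in 40 and 27 cells, while Ptprc (CD45), Cd48 and Spn were so in none. None of the 5 mesenchymal markers with a row was above TPM 1 in more than 5 cells.

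Most of the members were present in most cells. Every cell had at least 5 of the 9 above TPM 1, with a median of 7 (95% interval of the median 7 to 8). A total of 2 cells had 5 members, 9 had 6, 15 had 7, 19 had 8 and 5 had all 9. Of the members, 8 were above TPM 1 in at least 25 cells, against 53.2% of all rows, and 3 (Fos, Junb and Ier2) were above TPM 1 in all 50 cells, against 7.15% of all rows. The 7 genes other than Fosb and Fosl2 were above TPM 1 together in 33 cells (66%, exact 95% interval 51.2% to 78.8%), a grouping made after the values were seen. This count leans in part on low values, as Egr1 was between 1 and 10 TPM in 12 cells, Fos in 7 and Atf3 in 5. At TPM above 5, Egr1 alone was in 64% of cells and Atf3 in 70%. The count of 33 cells was not recomputed at other levels. Between the number of members and the number of genes above TPM 1 in a cell, Spearman's rho was -0.02 (n = 50 cells).

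**Figure D1:**
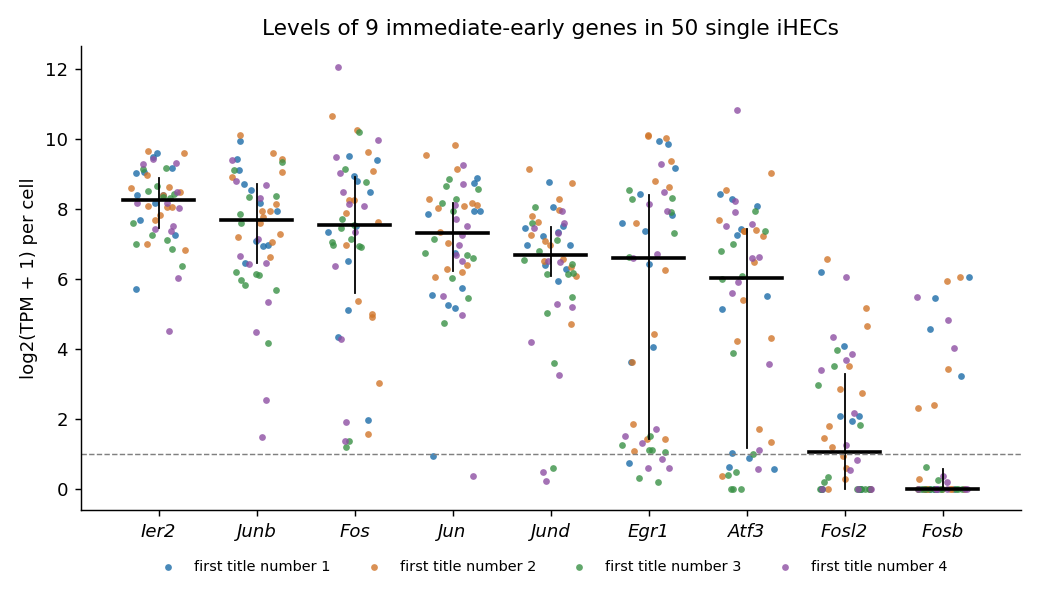
Level of each member, as log2(TPM + 1) on the vertical axis, with 1 point per cell coloured by first title number. The thick bar is the median, the thin bar spans the quartiles, and the dashed line is TPM 1. Ier2 is narrow around 301 TPM, Egr1 and Atf3 spread from near 0 to above 1000 TPM (Atf3 above 1000 in 1 cell), and Fosl2 and Fosb lie mostly near 0.

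In all, the members summed to a median of 1289 TPM per cell (95% interval 1138 to 1799), or 0.135% of the TPM of a cell. The sum ran from 331 TPM in cell 4-6 to 8053 TPM in cell 4-7. Fos was the highest member in 15 cells, Ier2 in 14, Junb in 9, Atf3 in 5, Jun in 4 and Egr1 in 3. No cell had Fosb, Fosl2 or Jund as its highest member.

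Fos (GRCm38 chromosome 12, 85473890 to 85477273, plus strand) encodes the Fos protein that AP-1 is best known for. Every one of the 50 cells had it above TPM 1 (95% interval 92.9% to 100%). Its lowest value was 1.29 TPM, its median 184 TPM (95% interval 123 to 303) and its highest 4227 TPM, in cell 4-7. The next highest cell was at 1595 TPM. The values covered a wide range without a cell at 0. There were 7 cells at or below 10 TPM and 35 above 100 TPM, 4 of them above 1000 TPM.

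The other Fos family genes were sparse. Fosb (chromosome 7, 19302696 to 19310051, minus strand), the closest relative of Fos among the members, exceeded TPM 1 in 12 cells (24%, 95% interval 13.1% to 38.2%) and was at 0 in 33. In the cells above TPM 1 its median was 24.9 TPM, and the highest value was 65.0 TPM. It was above TPM 1 in 4, 5, 0 and 3 cells of first title numbers 1, 2, 3 and 4. With 0 of 13 cells, shares up to 23.1% remain possible. Fosl2 (chromosome 5, 32135801 to 32157842, plus strand) codes for Fra-2, a Fos family protein. In 25 cells it was above TPM 1 (50%, 35.5% to 64.5%), and 24% of cells had it above 10 TPM. The median over all cells was 1.09 TPM and the highest value 94.4 TPM. The pair was found together in 5 cells only, while 32 cells had at least 1 of them.

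The Jun family was high in nearly all cells. Jun (chromosome 4, 95049034 to 95052222, minus strand), the partner through which Fos binds DNA, was missing at this level from 2 of 50 cells and present in 96% (86.3% to 99.5%). Its values ran from 0.30 to 903 TPM with a median of 157 TPM. The 2 cells without it, 1-9 and 4-6, had 4445 and 2400 genes above TPM 1 and were both among the 7 cells below 5000. Junb (chromosome 8, 84974484 to 84978718, minus strand), a family member that can act against Jun, exceeded TPM 1 everywhere and ran from 1.81 to 1100 TPM (median 204, 95% interval 123 to 314). Jund (chromosome 8, 70698949 to 70700616, plus strand), known as the steadily expressed member of the family, had 47 cells above TPM 1 (94%, 83.5% to 98.7%) and ran from 0.17 to 565 TPM with a median of 101 TPM. All 3 Jun genes were above TPM 1 together in 46 cells. Fos and Jun were above TPM 1 together in 48 cells (96%, 86.3% to 99.5%).

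Summed by family, the balance moved over a wide range from cell to cell. The Fos family summed to a median of 197 TPM (95% interval 124 to 304) and the Jun family to 542 TPM (384 to 695). Their ratio had a median of 0.417 (0.238 to 0.847). The lowest ratio was 0.0036, in cell 3-3, where Fos was at 1.29 TPM and Junb at 229 TPM. The highest was 29.1, in cell 4-6, where Fosl2 was at 64.6 TPM and Jun, Junb and Jund were each below 2 TPM. This was the cell with the fewest genes, and the next highest ratio was 3.38, in cell 4-7. The Fos family exceeded the Jun family in 15 cells (30%, 17.9% to 44.6%).

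Atf3 and Egr1 were present in most cells at very unequal levels. Egr1 (chromosome 18, 34859823 to 34864984, plus strand), a target of growth factor and shear signals, exceeded TPM 1 in 44 cells (88%, 75.7% to 95.5%). Its values ran from 0.14 to 1101 TPM with a median of 96.1 TPM (95% interval 2.59 to 240). There were 18 cells at or below 10 TPM and 24 above 100 TPM, with 8 cells in between. Atf3 (chromosome 1, 191170296 to 191218039, minus strand), a stress-induced factor that often represses, exceeded TPM 1 in 40 cells (80%, 66.3% to 90.0%). Its values ran from 0 to 1808 TPM, in cell 4-7, with a median of 64.5 TPM (17.8 to 151), and the next highest cell was at 513 TPM. A total of 15 cells were at or below 10 TPM and 21 above 100 TPM. On the log2(TPM + 1) scale Egr1 had an SD of 3.54, higher than in 99.7% of the 9104 rows that passed TPM 1 in 20% of cells or more, whose median SD was 2.14. The SD of Atf3 was higher than in 98.4% of these rows. Egr1 and Atf3 were above TPM 1 together in 36 cells, and 2 cells, 3-9 and 4-4, had neither.

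Ier2 (chromosome 8, 84661331 to 84662852, minus strand) was the opposite case. It was above TPM 1 in all 50 cells, from 21.7 to 801 TPM, with the highest median of the members, 301 TPM (95% interval 226 to 359). Its SD of log2(TPM + 1) was 1.08, higher than in only 5.82% of those rows. In 46 cells it was above 100 TPM.

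Ordered by median TPM, the members ran Ier2, Junb, Fos, Jun, Jund, Egr1, Atf3, Fosl2 and Fosb. The 95% intervals of the medians overlapped between all neighbours in that order except Atf3 and Fosl2. Ier2 was higher than Junb in 32 of 50 cells and Jun higher than Jund in 35, while Fos was higher than Junb in 27 cells and Jund higher than Egr1 in 24. Atf3 was higher than Fosl2 in 43 cells.

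Some medians varied with the first title number. The median of Egr1 was 193 TPM in number 1, 134 TPM in number 2, 48.9 TPM in number 4 and 1.87 TPM in number 3. Egr1 was at or below 10 TPM in 1 of 11 cells of number 1, 4 of 14 of number 2, 7 of 13 of number 3 and 6 of 12 of number 4. The medians of Junb lay between 71.8 and 283 TPM and those of Atf3 between 13.8 and 118 TPM, both lowest in number 3. Those of Jund lay between 62.8 TPM in number 4 and 149 TPM in number 1, and those of Ier2 between 272 and 336 TPM. Each of the 4 numbers held cells with Egr1 at or below 10 TPM and cells above 100 TPM. The part of the title number in these levels was not tested.

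The promoter sequences of 3 members are shown because Jun and Junb had a rank correlation (Spearman's rho) of 0.39 over the cells, while Fos had 0.22 with Jun and 0.09 with Junb. Pearson's r of log2(TPM + 1) was 0.41, 0.39 and 0.24 for these pairs, so on that measure Fos and Jun were nearly level with Jun and Junb. Each holds the 150 bases before the RefSeq start (GRCm38.p6), 5′ to 3′ along the gene, and none of the 3 overlaps an annotated exon of its gene. Capitals mark matches on either strand to TGACG, the core of a cAMP response element, to TGANNTCA, a site of the kind ATF and Jun dimers bind, and to the TATA box TATAAA.
Fos (chr12:85473740-85473889, plus strand): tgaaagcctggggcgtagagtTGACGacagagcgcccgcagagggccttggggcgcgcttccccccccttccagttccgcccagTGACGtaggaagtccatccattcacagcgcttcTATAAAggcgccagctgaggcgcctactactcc
Jun (chr4:95052223-95052372, minus strand): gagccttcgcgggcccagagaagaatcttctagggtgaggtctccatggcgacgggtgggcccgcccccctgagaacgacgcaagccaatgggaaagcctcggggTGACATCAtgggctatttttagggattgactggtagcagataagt
Junb (chr8:84978749-84978898, minus strand): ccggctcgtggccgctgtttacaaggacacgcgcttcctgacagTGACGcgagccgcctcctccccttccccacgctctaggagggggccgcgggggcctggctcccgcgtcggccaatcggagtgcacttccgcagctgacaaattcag
Fos had TGACG at bases -129 to -125 and again at -66 to -62, with TATAAA at -33 to -28. Jun had TGACATCA at bases -45 to -38, and Junb had TGACG at -106 to -102. A window of 250 bases before to 50 after the start was searched for the 7 members with one in the table, which are the members other than Egr1 and Ier2. TGACG was found in 4 of the 7 (Fos, Fosb, Junb and Atf3), against 20.8% of all 32851 windows. TGANNTCA was found in 2 (Jun and Jund), against 14.1%, and TATAAA in 2 (Fos and Junb), against 13.6%. The TATAAA of Junb began at the RefSeq start itself and not before it. The RefSeq starts used for Jund and Junb lie upstream of the gene starts given above, and the window of Jund does not reach that start. The windows of Atf3 and Fosl2 lie inside those genes as given above and overlap annotated exons. The TGACG of Atf3 therefore lies within the gene. The AP-1 letters TGANTCA and the CArG box, which binds the serum response factor, were in none of the 7, against 7.81% and 1.63% of all windows. A full cAMP response element would match both TGACG and TGANNTCA, so these counts can overlap. The searched window is short, and a match is a match of letters only.

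Whether the members rose and fell together was described next, with Spearman's rho over the 50 cells. The cells form 1 labelled group, whether they share a culture or sort is not given, and TPM values share a fixed total, so rho is given as a description. Of the 36 pairs of members, 32 had a rho above 0, against 53.2% of the values between a member and another row. The median rho was 0.19, against 0.01 with other rows. A total of 9 pairs lay above 0.27, the 95th percentile of the values with other rows, which 5% of those exceed. With the number of genes per cell held fixed, the median partial rho was 0.19 and 9 pairs again lay above the matching percentile. A total of 10 pairs were positive within every one of the 4 first title numbers, against 8.15% of the values with other rows. Of these 10, 3 include Fosb, which was not above TPM 1 in any cell of number 3, so its sign there rests on values below that level. Among the 7 members other than Fosb and Fosl2, 7 of 21 pairs were positive in every number. Taken against the 95th percentile of its own values with other rows, Jun and Junb each lay above it with 4 of the 8 other members, Ier2 with 3, Fosb, Jund, Atf3 and Egr1 with 2 each, and Fos and Fosl2 with 1 each.

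**Figure D2:**
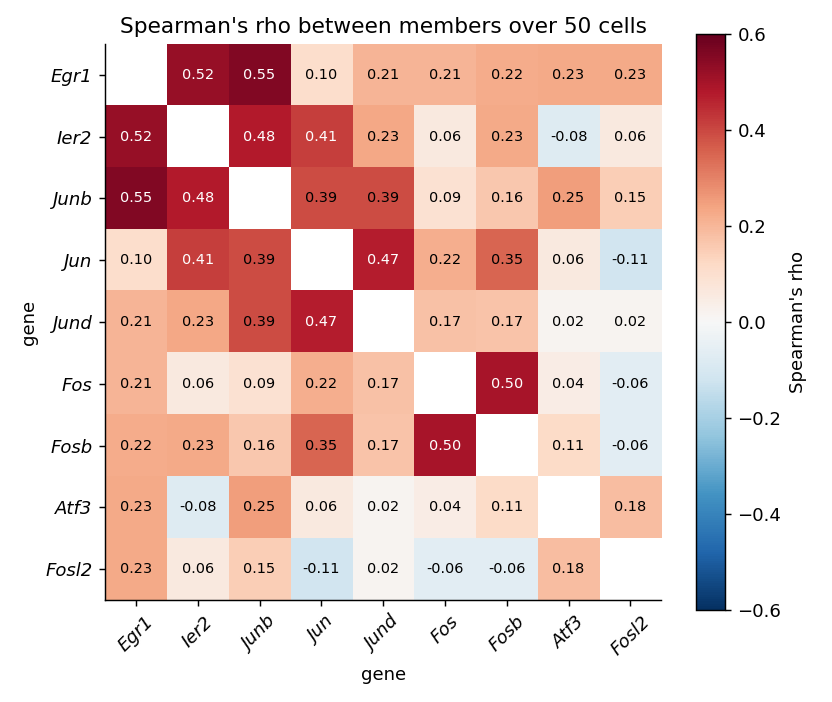
Spearman's rho over 50 cells for each pair of members, on a colour scale from -0.6 (blue) to 0.6 (red), with both axes listing the genes. The darkest red squares join Egr1, Ier2 and Junb (0.48 to 0.55), the Jun family (0.39 to 0.47), Jun with Ier2 (0.41) and Fos with Fosb (0.50), while Atf3 and Fosl2 stay at 0.25 or below with every other member.

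Junb, Egr1 and Ier2 had 3 of the 4 highest values, the other being Fos with Fosb. The rho was 0.55 for Junb and Egr1, 0.52 for Egr1 and Ier2, and 0.48 for Junb and Ier2, and each was positive within all 4 first title numbers. Without the 7 cells below 5000 genes these were 0.59, 0.49 and 0.38. For Junb and Egr1 the values within first title numbers lay between 0.41 and 0.56. The Jun family formed another such set, with 0.47 for Jun and Jund, 0.39 for Junb and Jund and 0.39 for Jun and Junb. These were again positive within all 4 numbers, but the lowest values there were 0.37, 0.03 and 0.12 in that order. The medians of Junb and Jund varied with the first title number, and its part in these values was not tested. Jun and Ier2 had a rho of 0.41. Jun and Egr1, in contrast, had a rho of 0.10, with values between -0.28 and 0.68 within the numbers.

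By rank, Fos had low values with most of the members. Its highest rho was 0.50, with Fosb, and all 12 cells with Fosb above TPM 1 also had Fos, as had all cells. With Jun, its binding partner, rho was 0.22 and ran from -0.24 to 0.71 within first title numbers. It was 0.16 without the cells below 5000 genes. With Egr1 it was 0.21, with Junb 0.09 and with Ier2 0.06. Pearson's r of log2(TPM + 1) was higher, 0.39 with Jun, 0.29 with Egr1, 0.24 with Junb and 0.16 with Ier2. Atf3 had a rho of 0.04 with Fos and 0.06 with Jun, and its highest was 0.25, with Junb. Fosl2 had its highest, 0.23, with Egr1, and was negative with Jun (-0.11), Fos (-0.06) and Fosb (-0.06). The remaining negative pair was Atf3 and Ier2 (-0.08).

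**Figure D3:**
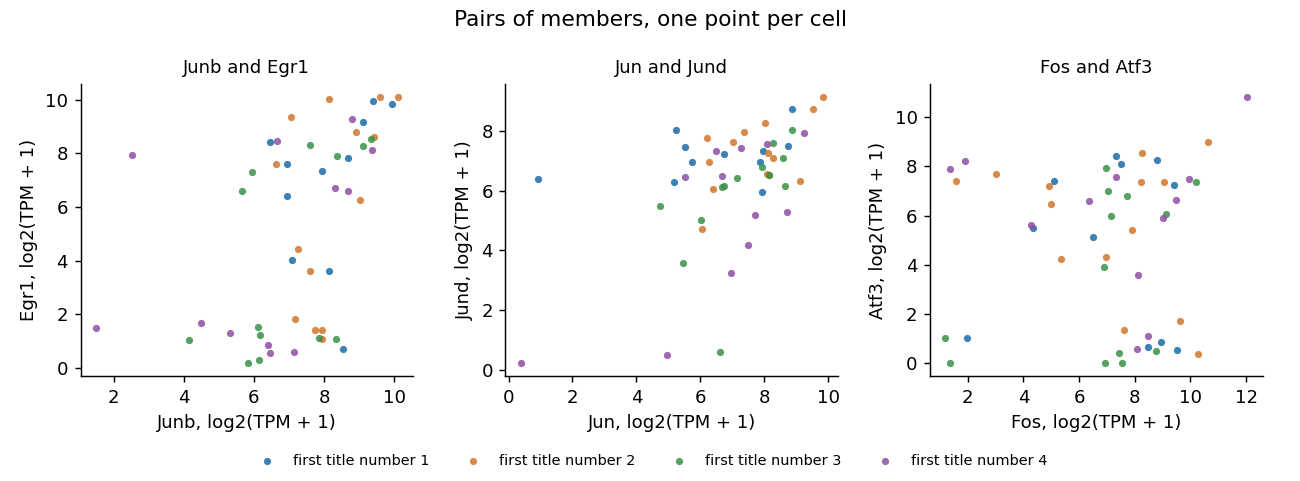
Pairs of members as log2(TPM + 1) on both axes, 1 point per cell, coloured by first title number. High Egr1 goes mostly with high Junb (rho 0.55) and Jund with Jun (rho 0.47), while Atf3 takes high and low values at all levels of Fos (rho 0.04).

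**Figure D4:**
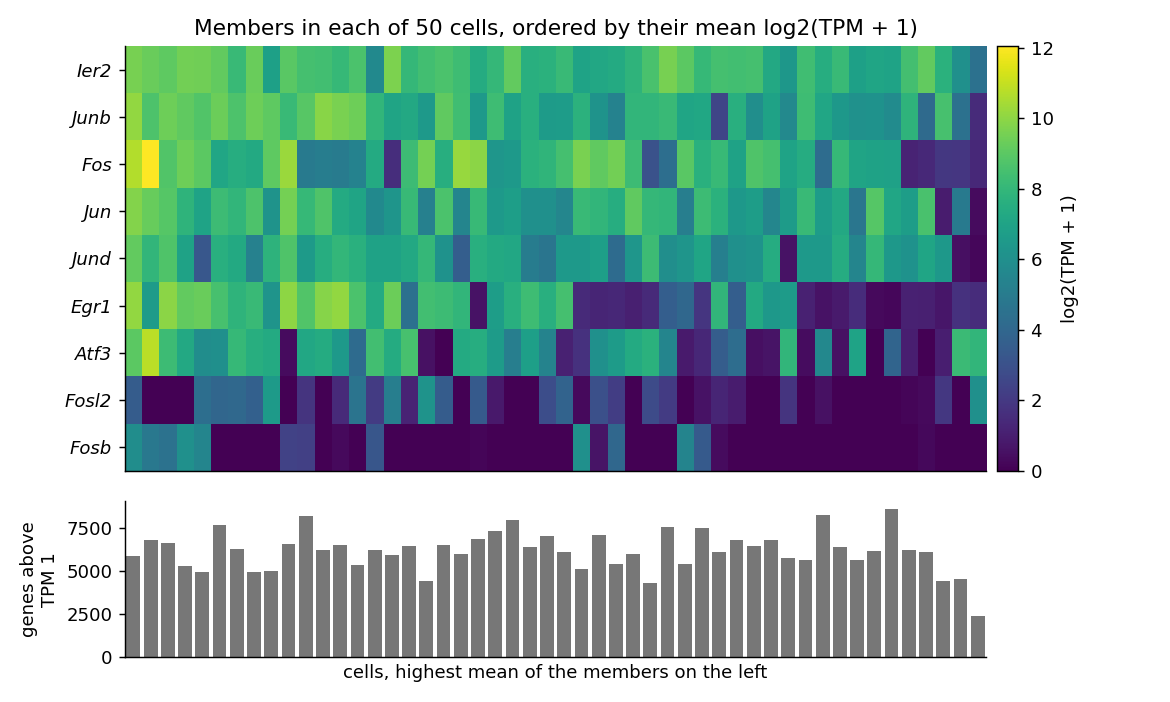
The upper panel shows log2(TPM + 1) of each member (rows) in each cell (columns), ordered from the highest to the lowest mean of the members. The lower panel gives the number of genes above TPM 1 in the same cells. Ier2 stays high almost to the right edge while Egr1 and Atf3 are at or near 0 in scattered cells, and the last cell, 4-6, has the fewest genes (2400).

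The extremes of the group can be followed in single cells. In cell 2-7, which had the highest mean of the members on the log2 scale (8.65), all 9 were above TPM 1, with Fos at 1595, Egr1 at 1089, Junb at 1100 and Jun at 903 TPM. Cell 4-7 had the highest sum, with Fos at 4227 TPM and Atf3 at 1808 TPM, while Egr1 was at 95.6 TPM there and Fosl2 at 0. In cell 4-6 Atf3 was at 239 TPM and Ier2 at 21.7 TPM, its lowest value, and Fos, Junb and Egr1 were each below 2 TPM. Cells 3-9 and 4-4 had the fewest members above TPM 1, 5 each, and both had Fos (121 and 270 TPM) with all 3 Jun genes. Between the mean of the members and the number of genes in a cell, rho was 0.08.

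The genes that act with the members were then taken from lists, and each gene was set against the mean log2(TPM + 1) of the 9 members. Over the 9095 other rows above TPM 1 in at least 20% of cells, rho had a median of 0.03, a 5th percentile of -0.22 and a 95th percentile of 0.28. By construction 5% of these rows lie beyond each percentile.

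Other immediate-early genes, with their feedback regulators, were above TPM 1 in most cells. Of the 28 with a row, 22 were above TPM 1 in at least 25 cells, at a median share of 91% of cells, against 52% over all rows. Of the 25 in at least 20% of cells, 11 lay above the 95th percentile (44%), and the median rho was 0.25. Csrnp1, a nuclear protein gene, had the highest of the list, 0.53, in 26 cells. Zfp36, which speeds the decay of unstable messengers, had 0.51 and was above TPM 1 in all cells at a median of 152 TPM. Btg2, an early gene that restrains growth, had 0.49 in 48 cells. Within first title numbers all 3 were positive, Csrnp1 between 0.39 and 0.61, Zfp36 between 0.10 and 0.75 and Btg2 between 0.29 and 0.82. The genes of the list with the highest medians among those in all 50 cells had lower values. Plk2, a kinase induced by serum, had a median of 555 TPM and a rho of 0.22, and Nfkbia, the inhibitor of NF-kB, a median of 272 TPM and a rho of 0.06. Chosen after their values were seen, the orphan receptor Nr4a1 (0.46), Dusp1 (0.45), a phosphatase that shuts MAP kinases off, and Ppp1r15a (0.46) were also above the percentile. Within first title numbers Nr4a1 lay between 0.28 and 0.75, while Dusp1 ran from -0.12 to 0.96 and Ppp1r15a from -0.05 to 0.81. Nr4a3 was above TPM 1 in no cell (0 of 50, so shares up to 6% remain possible), Gadd45b in 1 and Egr2 in 3. Without the cells below 5000 genes the count of genes above the percentile was 12 of 25, with the number of genes per cell held fixed it was 11, and without first title number 4 it was 8. Leaving out another first title number gave 10 to 12, and leaving Fosb and Fosl2 out of the mean gave 9.

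**Figure D5:**
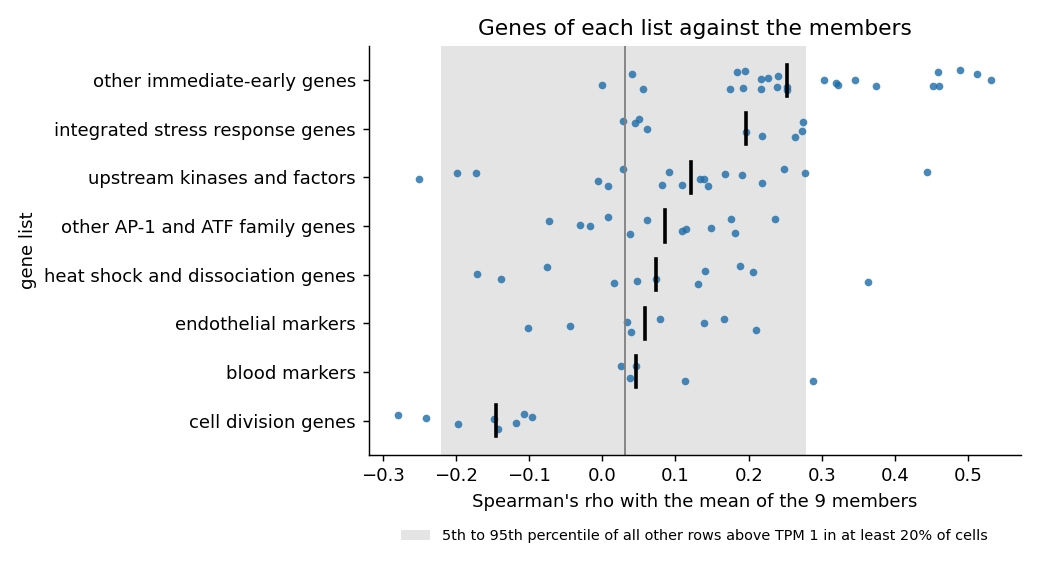
Spearman's rho of each listed gene with the mean of the 9 members over 50 cells (horizontal axis), by gene list, for genes that passed TPM 1 in 20% of cells or more. Black bars are list medians, the grey band runs from -0.22 to 0.28 and the grey line is the median of all other rows (0.03). The list of other immediate-early genes has 11 of 25 points to the right of the band, and the heat shock list has 1 of 11.

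Heat shock genes, some of which are known to rise along with immediate-early genes during enzymatic digestion, were described next. Whether this list measures handling in these cells was not tested. Of the 13 with a row, 10 were above TPM 1 in at least 25 cells, against 53.2% of all rows. The constitutive chaperones Hspa8 and Hsp90ab1 were in all cells at medians of 2969 and 1899 TPM, with rho of 0.13 and 0.19. Of the inducible genes, chosen after their values were seen, Hspa1a was above TPM 1 in 1 cell (2%, upper bound 10.6%) and Hspa1b in 3 cells (6%, upper bound 16.5%). Others were widely present, Hsp90aa1 in 50 cells (median 323 TPM, rho -0.14) and Dnajb1 in 47 cells (median 107 TPM, rho 0.14), while Hsph1 was above TPM 1 in 15 cells. Of the 11 genes in at least 20% of cells, 1 lay above the 95th percentile, and the median rho was 0.07. The count was 2 without first title number 2 and 0 without number 4. The endoplasmic reticulum chaperone Hspa5 had 0.21. Their summed level ran from 2094 to 14828 TPM and had a rho of 0.31 with the mean of the members. No cells taken without trypsin or without the sort were analysed here, so handling and the culture itself cannot be told apart as sources of the members' levels.

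Of the integrated stress response, through which Atf4 switches on Atf3, 9 of 10 genes were above TPM 1 in at least 25 cells, Atf4 itself in 49 at a median of 310 TPM and Xbp1 in 50 at 544 TPM. None of the 9 listed genes in at least 20% of cells lay above the 95th percentile. Ppp1r15a (0.46) was counted with the immediate-early list and not here. The highest of the integrated stress response list were Vldlr and Asns, with 0.27 each, and the median was 0.20. The count was 1 under 4 of the alternatives, without the cells below 5000 genes, with Fosb and Fosl2 left out of the mean, and without first title number 1 or 3. Among the kinases and factors upstream, 13 of 18 genes were above TPM 1 in at least 25 cells, against the same 53.2%. The ternary complex factor Elk3 was in 50 cells at 183 TPM and the kinase Mapk3 in 49 at 136 TPM, with rho of 0.09 and 0.01. Map2k1, which activates Mapk3, was the only gene of that list above the percentile (0.44, between 0.05 and 0.67 within first title numbers). The count was 3 of 18 without first title number 2, without number 4, and with Fosb and Fosl2 left out of the mean. Chosen after its value was seen, Srf, the serum response factor, was above TPM 1 in 20 cells and lay below the 5th percentile (-0.25). Of the other AP-1 and ATF family genes, 10 of 16 were above TPM 1 in at least 25 cells, against 53.2% of all rows, and none of 12 lay above the percentile, with 1 above it without first title number 1, 2 or 3. The highest in that list were Mafk (0.24) and Crem (0.18), the latter in 47 cells.

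All 8 cell division genes listed had a negative rho with the mean of the members, at a median of -0.15, against 0.03 over the other rows. The share of those rows with a negative rho was not counted. Of the 8 genes, 2 lay below the 5th percentile. These were Top2a (-0.28), for a topoisomerase that separates chromosomes, and Mcm5 (-0.24), for a subunit of the replication helicase. Within first title numbers Top2a lay between -0.50 and -0.14 and Mcm5 between -0.22 and 0.07. Pcna and Cdk1, in 48 and 47 cells, had -0.11 and -0.15, and Ccnb1 had -0.10. None of the 8 endothelial markers lay beyond the band, with 1 above it without the cells below 5000 genes and without first title number 3 or 4. Cdh5 had 0.21, Egfl7 0.17 and Esam 0.08. Of the 5 blood markers in at least 20% of cells, Coro1a lay above it (0.29, between -0.30 and 0.38 within first title numbers), but the list had none above it without the cells below 5000 genes or without first title number 2, 3 or 4, while Gfi1 had 0.11, Itga2b 0.05 and Tyrobp 0.03. The mesenchymal genes Twist1, Col1a2 and Pdgfra were above TPM 1 in 5, 2 and 2 cells. The summed level of the mesenchymal list was at most 84.2 TPM and that of the blood list ran from 0.18 to 4125 TPM, with rho of 0.03 and 0.15 with the members.

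Over all rows, the genes most like the mean of the members were Mfhas1 (0.54), Csrnp1, Zfp36, D8Ertd82e (0.49) and Btg2, so 3 of the 5 came from the list of immediate-early genes. The least like were Ranbp1 (-0.53), Dbi (-0.53), Mrpl42 (-0.52), Nme4 (-0.51) and Ppia (-0.49). Of these, Ranbp1 serves nuclear transport, Mrpl42 is a mitochondrial ribosomal protein and Ppia is cyclophilin A. Within first title numbers Dbi, Mrpl42, Nme4 and Ppia were negative in each, while Ranbp1 lay between -0.91 and 0.13. The genes most like Egr1 were Csrnp1 (0.56), Btg2 (0.51) and Rassf1 (0.49). Csrnp1 and Btg2 were thus closer to Egr1 alone than to the mean of the members (0.53 and 0.49). Those most like Jun were Col18a1 (0.67), a basement membrane collagen gene, Rbm5 (0.62) and Atp8b2 (0.60). Among the 3 genes most like Fos were Ctps and Tiparp, at 0.46 each. No gene was among the first 3 for more than 1 of Fos, Jun and Egr1. These genes were picked as the extremes of 9095 values over 50 cells.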

How the data were processed

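Single iRunx1-iHECs (50 cells, 1 library each) were amplified with a whole-transcriptome kit. The authors aligned reads to mm10 with HISAT2 (2.1.0) and estimated TPM with StringTie (1.3.4), and the deposited values are TPM per gene and cell. Versions are those in the submitters' processing notes. No molecular identifiers are named, so amplified copies were not told apart. Columns summed to between 942975 and 970894 TPM. The rule that selected the rows, the annotation and the use of strand are not given in the sources used here. In the annotation Jun and Jund overlap antisense genes, Junb overlaps Prdx2 on the opposite strand, and Atf3 overlaps the small RNA gene Gm24748, so reads there could be split.

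Shares of cells above TPM 1 were given with exact Clopper-Pearson 95% intervals and medians with order-statistic 95% intervals. For a count of 0, 3 counts of the total gave the upper limit. These cover counting over cells only. Log values used log2(TPM + 1). Spearman's rho over cells was a description with no p, and partial rho held the number of genes above TPM 1 fixed. No cell was left out, no cells were clustered and no doublet caller was run. Coordinates are from GENCODE M21 (GRCm38, which mm10 names) and promoters from RefSeq (GRCm38.p6). Python 3.11.15, numpy 2.4.6, pandas 2.3.3 and scipy 1.17.1 were used, and the rank statistics were tested on simulated data.

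The members and lists were chosen with earlier results of these data known. Named genes were all members, of each list the 2 genes in the most cells and the 2 with the highest rho (ties by the higher median), the 5 rows most and least like the mean of the members, and the 3 rows most like Fos, Jun and Egr1. Some genes this rule picks are not reported here. Pluripotency genes were listed too, but the 8 chosen had no row and were not analysed here. Results were recomputed at TPM above 0, 5 and 10, with a pseudocount of 0.1, with cells left out, rescaled without 83 ribosomal protein rows, and with other measures of likeness.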

Additional observations from a re-analysis of the deposited data

How the results depend on the processing

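Shares and medians were held against a 95% interval and mean log2 levels against 1 SD over cells. The interval for the median share over the members was that of a single share, and the one for the median rho that of a single rho over 50 cells (-0.09 to 0.45), so both are loose limits. The median number of members per cell stayed within its limits under every alternative run. With every value above 0 counted, the median share of cells over the members was 100%, from 94%, and Fos and Jun were together in 100% of cells. At TPM above 10 they were together in 86%, and without the 7 cells below 5000 genes in 100%. The median sum was 1041 TPM without Ier2, the member with the highest median. A lower or higher level counts more or fewer values by construction.

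Leaving out each first title number in turn, or rescaling without ribosomal protein rows, kept all 5 main results within their limits. Leaving out cell 4-6 or cell 4-7, chosen after seeing the data, did so too, with a median rho of 0.18 in both cases. Pearson's r of log2 values and the partial rho also kept the median within its limits. Of the shares of single members, 4 left their 95% interval with every value above 0 counted, Jun, Jund and Egr1 at 100% and Atf3 at 94%. At TPM above 5, 3 left it, Fos at 88%, Fosl2 at 32% and Egr1 at 64%, and at TPM above 10 these were 86%, 24% and 64%. Without the cells below 5000 genes Jun left it, at 100%. A pseudocount of 0.1 moved 1 mean beyond the SD over cells, that of Fosb to -1.29. No paired analysis was possible because all cells form 1 group. TPM gives no depth, so low sampling of a messenger and its absence cannot be told apart.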
